A study of Mus musculus with 15 samples.

Results

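The receptors for incretin hormones, glucagon and the peptide PACAP were examined in mouse pancreatic islet cells. The 8 receptor genes were chosen by name, as Glp1r, Gipr, Gcgr, Adcyap1r1, Vipr1, Vipr2, Glp2r and Sctr, out of 19938 genes measured on 15 Affymetrix arrays. Each gene was read from a transcript cluster, the set of probes that the array assigns to a gene. Of the 9 clusters annotated to these genes alone, Vipr1 had 2, and a gene with more than 1 was read from its brightest, by the mean signal of all 15 arrays.

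The samples were 5 of Pdx1-deficient cells, 5 of normal alpha cells and 5 of normal beta cells, all from mice on a mixed background of B6 and BALB/C. The Pdx1-deficient cells, labelled PKO and described as reprogrammed cells, were taken 5 days after tamoxifen, and the sources used here give neither the Cre driver nor the sort of these cells. The control cells were sorted by a YFP reporter from mice 2 months old. The sources used here give no age for the Pdx1-deficient mice and no tamoxifen treatment for the control mice. Age and tamoxifen therefore cannot be told apart from the loss of Pdx1 in comparisons with the Pdx1-deficient arrays. The genotype label of the alpha samples is RIP-CreER; Pdx1fl/+, RosaYFP, and that of the beta samples is glucagon-Cre; RosaYFP. The rat insulin promoter (RIP) drives expression in beta cells and the glucagon promoter in alpha cells, so these genotypes stand against the titles, from which the groups were taken. If the label is right, the alpha samples carried 1 floxed Pdx1 allele. The series title asks whether Pdx1, a homeodomain transcription factor of beta cells, maintains beta-cell identity by repressing an alpha-cell program.

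These receptors belong to the family B of G-protein-coupled receptors, which bind peptide hormones. In islet cells they couple mainly to the Gs protein and adenylyl cyclase, and the cyclic AMP they raise acts through protein kinase A and Epac to enhance glucose-stimulated secretion. The gut hormones GLP-1 and GIP use the receptors encoded by Glp1r and Gipr to increase insulin release, and Glp1r is the target of drugs against diabetes. Glucagon acts on the receptor encoded by Gcgr, GLP-2 on that of Glp2r and secretin on that of Sctr. PACAP and VIP share the receptors of Vipr1 and Vipr2, while that of Adcyap1r1 is selective for PACAP.

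Pdx1 and the identity markers were read first, because they test the labels. Pdx1 had log2 signals of 9.12, 7.83, 7.68, 6.53 and 7.59 in Pdx1-deficient replicates 1 to 5, 7.27 to 8.21 in alpha arrays and 8.85 to 9.33 in beta arrays. Its mean difference from beta arrays was -1.39 in Pdx1-deficient arrays (limma adjusted p = 0.0575) and -1.28 in alpha arrays (limma adjusted p = 0.0473), and whether its probes lie in the deleted part is not stated in the labels. The array labelled Pdx1-deficient replicate 1 thus went against its label in its Pdx1 signal, which lay within the beta range. Its mean over the beta-cell markers, Pdx1 among them, was 10.13, where beta arrays lay between 9.94 and 10.26. Its mean over the alpha-cell markers was 8.53, the highest of its group, where beta arrays lay between 7.86 and 8.02. Results are given with and without this array. Markers were counted where they passed a limma adjusted p of 0.05 against beta arrays. Of 8 measured beta-cell markers, 1 passed as lower in Pdx1-deficient and 5 in alpha arrays, and 0 passed as higher. Of 7 measured alpha-cell markers, 1 passed as higher in Pdx1-deficient and 3 in alpha arrays, and 0 passed as lower. Of all genes, 0.928% passed as lower and 0.16% as higher in Pdx1-deficient arrays, and 3.15% and 0.893% in alpha arrays. The beta-cell and alpha-cell markers that passed between alpha and beta arrays thus all followed the titles, not the genotype labels. Ins2, the insulin gene measured here, averaged between 11.90 and 12.03 in all 3 groups, near the top of the array scale, whose highest value was 13.45. Whether these probes were saturated was not tested, and no difference is read from Ins2. Array medians ran from 5.88 to 6.05. Alpha replicate 5 carried acinar RNA at a mean of 12.33 over 4 measured markers, where the remaining alpha arrays lay between 6.05 and 7.46. The array labelled alpha replicate 2 had a mean of 8.28 over the 7 alpha-cell markers, where the remaining alpha arrays lay between 9.04 and 9.15. Whether replicates were separate animals is not stated in the labels, and the p-values below reflect the spread among these arrays only, part of which may be technical.

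Glp1r, which encodes the GLP-1 receptor, had the largest differences of the 8 receptors between Pdx1-deficient and beta and between alpha and beta arrays. Its log2 signals were 10.13, 8.26, 8.13, 6.95 and 7.51 in Pdx1-deficient replicates 1 to 5. Alpha arrays read 8.52, 8.21, 8.07, 8.70 and 8.62, and beta arrays 9.69, 9.69, 10.05, 9.93 and 9.90. In 4 of 5 Pdx1-deficient arrays Glp1r lay below every beta array, while the array labelled Pdx1-deficient replicate 1 lay above every beta array, as its Pdx1 signal also lay within the beta range. All 5 alpha arrays lay below all beta arrays. The signal stood above the array's own 75th percentile on 4 of 5 Pdx1-deficient arrays and on all alpha and beta arrays, so the gene was read well within the measured range.

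**Figure D1:**
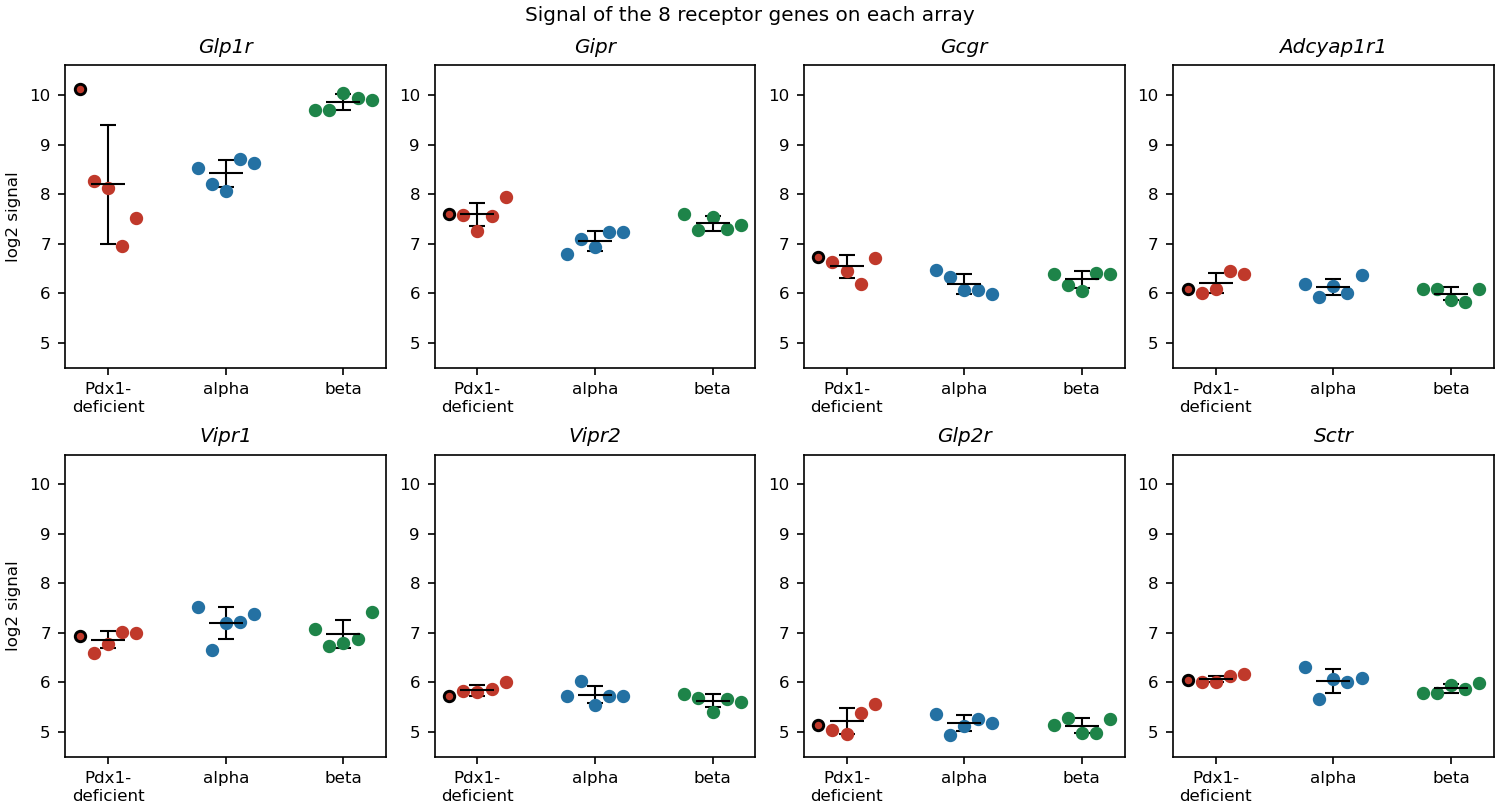
Log2 signal (y axis) of the 8 receptor genes on each array of the Pdx1-deficient, alpha and beta groups. Points are arrays in replicate order, the ringed point is the array labelled Pdx1-deficient replicate 1, and the bars are mean ± SD (n = 5). Glp1r spreads from 6.95 to 10.13 in Pdx1-deficient arrays and sits between 9.69 and 10.05 in beta arrays, while no other receptor spans as wide a range.

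The 250 bases before the annotated start of Glp1r are shown beside those of Gcgr, the glucagon receptor gene, so that the receptor gene with a mean difference of -1.66 between Pdx1-deficient and beta arrays can be set against one with a difference of 0.26. Both windows come from RefSeq, build GRCm38.p6, and run 5′ to 3′ on the plus strand, at chr17:30901617-30901866 for Glp1r and chr11:120530477-120530726 for Gcgr. Capitals mark the GC box GGGCGG on either strand, a binding motif of Sp factors.
Glp1r: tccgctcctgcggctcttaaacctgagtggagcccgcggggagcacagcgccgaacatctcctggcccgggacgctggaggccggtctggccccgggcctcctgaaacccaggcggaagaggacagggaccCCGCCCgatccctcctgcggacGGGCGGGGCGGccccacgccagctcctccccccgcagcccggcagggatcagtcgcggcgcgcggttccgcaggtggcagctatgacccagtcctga
Gcgr: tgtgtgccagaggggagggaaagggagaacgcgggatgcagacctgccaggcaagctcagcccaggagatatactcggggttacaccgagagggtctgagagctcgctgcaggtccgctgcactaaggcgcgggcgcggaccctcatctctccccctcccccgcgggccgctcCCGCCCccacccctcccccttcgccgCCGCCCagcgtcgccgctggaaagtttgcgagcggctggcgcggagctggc
Such windows were found for 6 of the 8 receptors, all but Gipr and Sctr. The Glp1r window held 3 GC boxes, a pair of which overlap, and the Gcgr window 2, where 32.7% of 32851 mouse promoter windows of this length held any. Vipr1, whose difference between Pdx1-deficient and beta arrays was -0.12, also held 3. The windows of Adcyap1r1 and Vipr2 held 1 each and that of Glp2r 0, so the boxes are no trait of Glp1r alone. GC content was 73.2% in Glp1r and 70.4% in Gcgr, against a median of 52.4%. It was 72.8% in Vipr1, 65.6% in Adcyap1r1, 65.2% in Vipr2 and 50.4% in Glp2r. The homeodomain core TAAT, searched on both strands, was in 0 of the 6 windows, while 54.9% of all windows held it. TAAT holds no G or C, and the windows compared were not matched for GC content. No lack of homeodomain sites is therefore read from this count. An E-box, CANNTG, was in the Glp1r window alone of the 6, once, and in 66.2% of all windows. The letters describe these windows only and say nothing of sites elsewhere.

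Glp1r averaged 8.20 ± 1.20 in the arrays labelled Pdx1-deficient and 9.85 ± 0.16 in beta arrays (SD, n = 5 each). The difference was -1.66 on the log2 scale (SE 0.41, 95% interval -2.53 to -0.78), a 3.15-fold lower signal, and the 17th lowest of all 19938 differences. It did not pass the threshold of 0.05 across all genes (limma adjusted p = 0.0617; unadjusted p = 0.00106; two-sided exact permutation p = 0.0476). Leaving out Pdx1-deficient replicate 1 gave -2.14, which passed (limma adjusted p = 0.00188; alternatives ranged from 0.00188 to 0.151, and 3 of 23 passed). The call therefore depends on that array and on the scaling. The difference also passed with array medians subtracted, at -1.76 (limma adjusted p = 0.0405). After a further quantile normalization it was -1.53 and did not pass (limma adjusted p = 0.106). Pdx1-deficient replicate 1 was doubted for its Pdx1 signal, which followed Glp1r over the 15 arrays (Pearson r = 0.914). It also had the highest Glp1r signal of its group, so leaving it out is not independent of Glp1r. The difference was negative in every alternative, between -2.14 and -1.34. In these bulk samples fewer cells that express a gene and less RNA per cell cannot be told apart.

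In alpha arrays Glp1r averaged 8.42 ± 0.27 and in beta arrays 9.85 ± 0.16 (SD, n = 5 each), a difference of -1.43 (SE 0.41, 95% interval -2.30 to -0.56) or 2.69-fold. The exact permutation p was 0.00794, the smallest that 5 against 5 arrays allow, while the fit across all genes did not pass (limma adjusted p = 0.0638). That fit takes its spread from all 3 groups, and the Pdx1-deficient group alone had an SD of 1.20. With the alpha and beta arrays alone the difference passed (limma adjusted p = 0.00291), as it did when Pdx1-deficient replicate 1 was left out (limma adjusted p = 0.00385; 0.00291 to 0.14 over the 23 alternatives, of which 5 passed). With array medians subtracted it was -1.52 and passed (limma adjusted p = 0.0488). After a further quantile normalization it was -1.31 and did not pass (limma adjusted p = 0.0949). Without alpha replicate 5, whose acinar markers were high, it was -1.48.

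Pdx1-deficient and alpha arrays differed in Glp1r by -0.23 (95% interval -1.10 to 0.65, limma adjusted p = 0.988, exact permutation p = 0.714). Pdx1-deficient replicates 4 and 5, at 6.95 and 7.51, lay below every alpha array, and replicates 2 and 3 lay within the alpha range. The order of the mean levels was therefore Pdx1-deficient 8.20, alpha 8.42 and beta 9.85, of which the first pair did not differ beyond their spread. Leaving out Pdx1-deficient replicate 1 gave a difference from alpha arrays of -0.71 (limma adjusted p = 0.465), and leaving out replicate 4 gave 0.08.

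**Figure D2:**
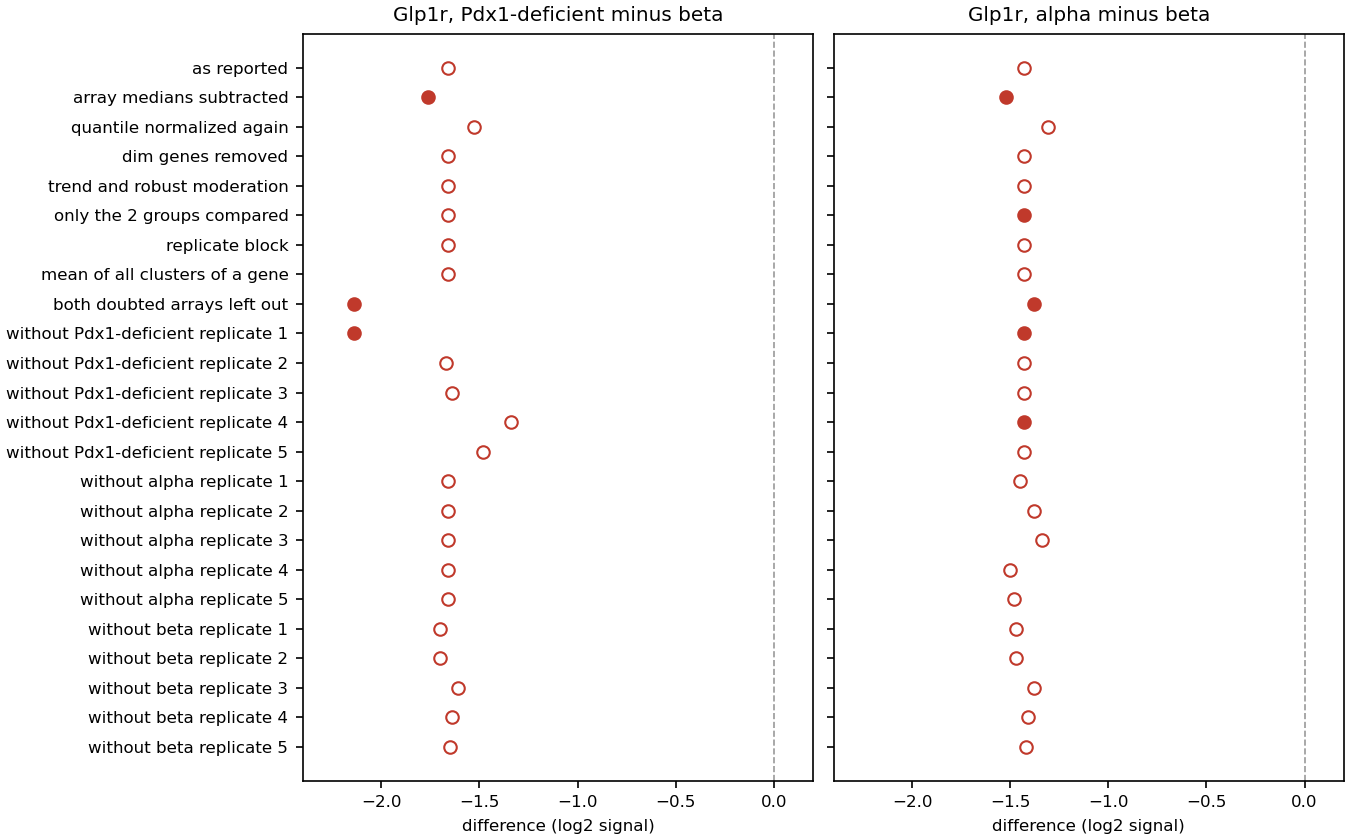
Difference of Glp1r in log2 signal (x axis) under the reported fit and 23 alternatives, for Pdx1-deficient minus beta (left) and alpha minus beta (right). Filled points have a limma adjusted p under 0.05; both doubted arrays are Pdx1-deficient replicate 1 and alpha replicate 2. All points lie below 0, and 3 alternatives on the left and 5 on the right pass.

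Marker lists of islet cells are given beside these differences. The 7 alpha-cell markers averaged 8.26 to 8.53 in Pdx1-deficient, 8.28 to 9.15 in alpha and 7.86 to 8.02 in beta arrays. The 8 beta-cell markers averaged 8.54 to 10.13 in Pdx1-deficient, 8.58 to 9.21 in alpha and 9.94 to 10.26 in beta arrays, and the lowest Pdx1-deficient values, 8.54 and 8.64, were those of replicates 4 and 5. Delta cells also express Glp1r in the mouse. The 5 delta-cell markers averaged 8.24 to 8.96 in Pdx1-deficient, 8.66 to 9.48 in alpha and 8.74 to 9.10 in beta arrays. Of these 5, 0 passed in Pdx1-deficient arrays, and in alpha arrays Rbp4 was higher and Casr lower. None of the beta-cell or delta-cell markers lay below the 25th percentile on every array of any group. The delta-cell hormone gene Sst averaged 11.61 in Pdx1-deficient, 12.13 in alpha and 12.08 in beta arrays. Ppy, the hormone gene of islet PP cells, averaged 12.46, 12.43 and 12.34 in these groups. Whether RNA of other islet cells or saturated probes lay behind these levels was not tested. The part of beta and delta cells in the Glp1r signal was not tested either.

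The genes whose signals followed Glp1r most closely over the 15 arrays were Ero1b, an oxidoreductase of the endoplasmic reticulum that serves insulin folding (Pearson r = 0.951, Spearman rho = 0.921), the beta-cell peptide gene Ucn3 (r = 0.941, rho = 0.861) and Nars, a tRNA synthetase gene (r = 0.934, rho = 0.857). Pdx1 itself had r = 0.914 and rho = 0.779 and ranked 13 among 10492 genes above the median array signal. Without the 2 arrays farthest from the Glp1r median, Pdx1-deficient replicates 1 and 4, r was 0.924 for Ero1b, 0.954 for Ucn3, 0.905 for Nars and 0.870 for Pdx1. These coefficients describe the arrays and carry no p-value, because the 5 beta arrays and the array labelled Pdx1-deficient replicate 1 lie apart from the other 9 in Glp1r and Pdx1, and the arrays share that step.

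**Figure D3:**
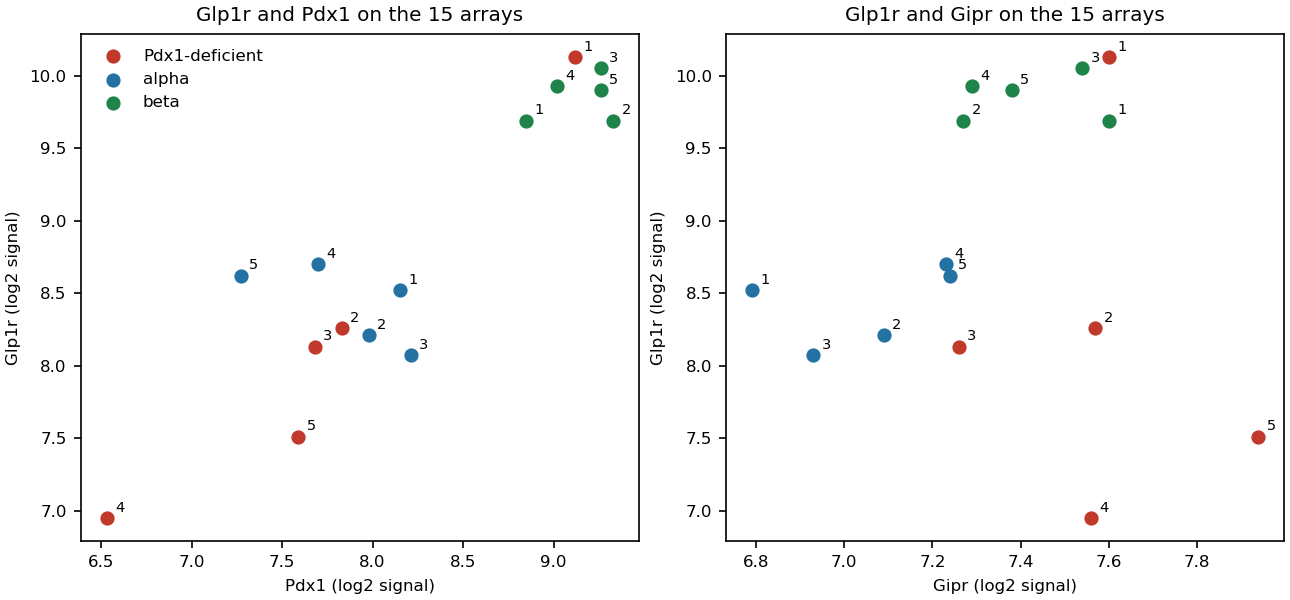
Log2 signal of Glp1r (y axes) against that of Pdx1 (left) and Gipr (right) on the 15 arrays, coloured by group and numbered by replicate. The array labelled Pdx1-deficient replicate 1 sits with the beta arrays in both panels, with Pdx1 at 9.12, Gipr at 7.60 and Glp1r at 10.13, while Gipr in Pdx1-deficient replicates 4 and 5 stays at 7.56 and 7.94.

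Gipr, which encodes the GIP receptor, followed another pattern. Its log2 signals were 7.60, 7.57, 7.26, 7.56 and 7.94 in Pdx1-deficient replicates 1 to 5, 6.79, 7.09, 6.93, 7.23 and 7.24 in alpha arrays, and 7.60, 7.27, 7.54, 7.29 and 7.38 in beta arrays. All alpha arrays lay below all arrays of the other groups, and Pdx1-deficient and beta arrays overlapped. Pdx1-deficient arrays averaged 7.59 ± 0.24 and beta arrays 7.41 ± 0.15 (SD, n = 5 each), a difference of 0.17 (95% interval -0.09 to 0.44, limma adjusted p = 0.407, exact permutation p = 0.246), or 0.07 with array medians subtracted.

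Gipr in alpha arrays, at 7.06 ± 0.20 (SD, n = 5), differed from beta arrays by -0.36 (95% interval -0.62 to -0.09, limma adjusted p = 0.123, exact permutation p = 0.00794). Pdx1-deficient arrays stood above alpha arrays by 0.53 (95% interval 0.26 to 0.79, limma adjusted p = 0.319, exact permutation p = 0.00794), or 1.44-fold. Neither difference passed across all genes, where the comparison of Pdx1-deficient with alpha arrays gave 0 calls (limma; 1197 genes at an unadjusted p under 0.05). With array medians subtracted the difference of alpha from beta arrays was -0.44 and passed (limma adjusted p = 0.0498; 0.0498 to 0.256 over the 23 alternatives). After a further quantile normalization the arrays overlapped in both comparisons, with exact permutation p = 0.0238 for alpha against beta and 0.0159 for Pdx1-deficient against alpha arrays.

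The incretin receptors were then set against each other within each array, a pair chosen after their values were seen. The Glp1r signal minus the Gipr signal was 2.53, 0.69, 0.87, -0.61 and -0.43 in Pdx1-deficient replicates 1 to 5, 1.12 to 1.72 in alpha arrays and 2.09 to 2.65 in beta arrays. Alpha and beta arrays did not overlap in this measure, and 4 of 5 Pdx1-deficient arrays lay below both other groups. These are differences of probe signals, so their level has no meaning for transcript numbers. The mean was 0.61 ± 1.26 in Pdx1-deficient, 1.36 ± 0.25 in alpha and 2.44 ± 0.21 in beta arrays (SD, n = 5 each). Pdx1-deficient arrays thus stood -1.83 from beta arrays and -0.75 from alpha arrays, and alpha arrays -1.07 from beta arrays. Because the pair was picked for this pattern, the values are a description and no test is given. Leaving out Pdx1-deficient replicate 1, an array doubted for its Pdx1 signal, made the difference from beta arrays -2.31 and that from alpha arrays -1.23.

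Gcgr encodes the glucagon receptor, through which glucagon from alpha cells stimulates beta cells. It had log2 signals of 6.74, 6.62, 6.45, 6.19 and 6.72 in Pdx1-deficient replicates 1 to 5, 6.46, 6.32, 6.07, 6.07 and 5.99 in alpha arrays and 6.39, 6.17, 6.04, 6.41 and 6.39 in beta arrays. In 4 of 5 Pdx1-deficient arrays it lay above every beta array, and replicate 4 overlapped with both other groups. The difference from beta arrays was 0.26 (95% interval -0.01 to 0.53, limma adjusted p = 0.238, exact permutation p = 0.0556) and that from alpha arrays 0.36 (95% interval 0.09 to 0.62, limma adjusted p = 0.608, exact permutation p = 0.0397). With array medians subtracted the difference from beta arrays was 0.16 (exact permutation p = 0.238). Alpha and beta arrays, at 6.18 ± 0.20 and 6.28 ± 0.17 (SD, n = 5 each), differed by -0.10 (95% interval -0.36 to 0.17), or -0.18 with array medians subtracted. Gcg, which encodes proglucagon, the precursor of glucagon and GLP-1, averaged 12.52 ± 0.19 in Pdx1-deficient, 12.74 ± 0.16 in alpha and 12.35 ± 0.17 in beta arrays (SD, n = 5 each). These values lie near the highest on the arrays, 13.45, and whether the probes were saturated was not tested, so no difference is read from them.

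The receptors of PACAP and VIP differed little. Adcyap1r1, which encodes the PACAP-selective receptor PAC1, averaged 6.20 ± 0.20 in Pdx1-deficient, 6.13 ± 0.16 in alpha and 5.99 ± 0.13 in beta arrays (SD, n = 5 each), and the groups overlapped. Its highest Pdx1-deficient values, 6.45 and 6.38, were those of replicates 4 and 5, the arrays with the highest medians of all signals (6.03 and 6.05). The difference of Pdx1-deficient from beta arrays was 0.21 (95% interval -0.02 to 0.44, limma adjusted p = 0.266), or 0.11 with array medians subtracted. That interval includes 0 and does not reach the size of the Glp1r difference. Alpha and beta arrays differed by 0.14 (95% interval -0.10 to 0.37), or 0.05 with array medians subtracted.

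Vipr1, for the receptor VPAC1, averaged 6.86 ± 0.17 in Pdx1-deficient, 7.20 ± 0.33 in alpha and 6.98 ± 0.28 in beta arrays (SD, n = 5 each). Pdx1-deficient arrays differed from beta arrays by -0.12 (95% interval -0.47 to 0.22) and from alpha arrays by -0.34 (95% interval -0.68 to 0.01, limma adjusted p = 0.832). The second Vipr1 cluster, 10590365, gave -0.27 and -0.28 for the same comparisons, so both clusters had the same sign there. For alpha against beta arrays the clusters gave 0.21 and 0.01. With array medians subtracted the first cluster gave -0.22 for Pdx1-deficient and 0.13 for alpha against beta arrays.

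Vipr2, for the receptor VPAC2, ranged from 5.73 to 6.01 in Pdx1-deficient, 5.55 to 6.02 in alpha and 5.41 to 5.77 in beta arrays, and 4 of 5 Pdx1-deficient arrays lay above every beta array. The difference was 0.22 (95% interval 0.01 to 0.42, limma adjusted p = 0.204, exact permutation p = 0.0159). With array medians subtracted it was 0.12 (exact permutation p = 0.103). Its signal lay below the array median on all Pdx1-deficient and beta arrays and on 4 of 5 alpha arrays.

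Glp2r and Sctr, receptors best known in the gut and in ducts, were read at low signal. Glp2r ranged from 4.95 to 5.57 in Pdx1-deficient, 4.94 to 5.37 in alpha and 4.97 to 5.29 in beta arrays, below the array median on all 15 arrays, and Pdx1-deficient arrays differed from beta arrays by 0.09 (95% interval -0.17 to 0.35). The sign of that difference turned, to -0.01, when array medians were subtracted. Sctr read 6.05, 6.01, 6.01, 6.13 and 6.17 in Pdx1-deficient replicates 1 to 5, 5.66 to 6.32 in alpha arrays and 5.79, 5.79, 5.94, 5.87 and 5.99 in beta arrays. Pdx1-deficient and beta arrays did not overlap, with a gap smaller than the spread within either group, and the difference was 0.20 (95% interval -0.02 to 0.41, limma adjusted p = 0.265, exact permutation p = 0.00794). With array medians subtracted it was 0.10 and the groups overlapped (exact permutation p = 0.111). The 4 measured duct markers averaged 5.99 to 6.24 in Pdx1-deficient and 5.97 to 6.33 in beta arrays, with 0 passing.

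**Figure D4:**
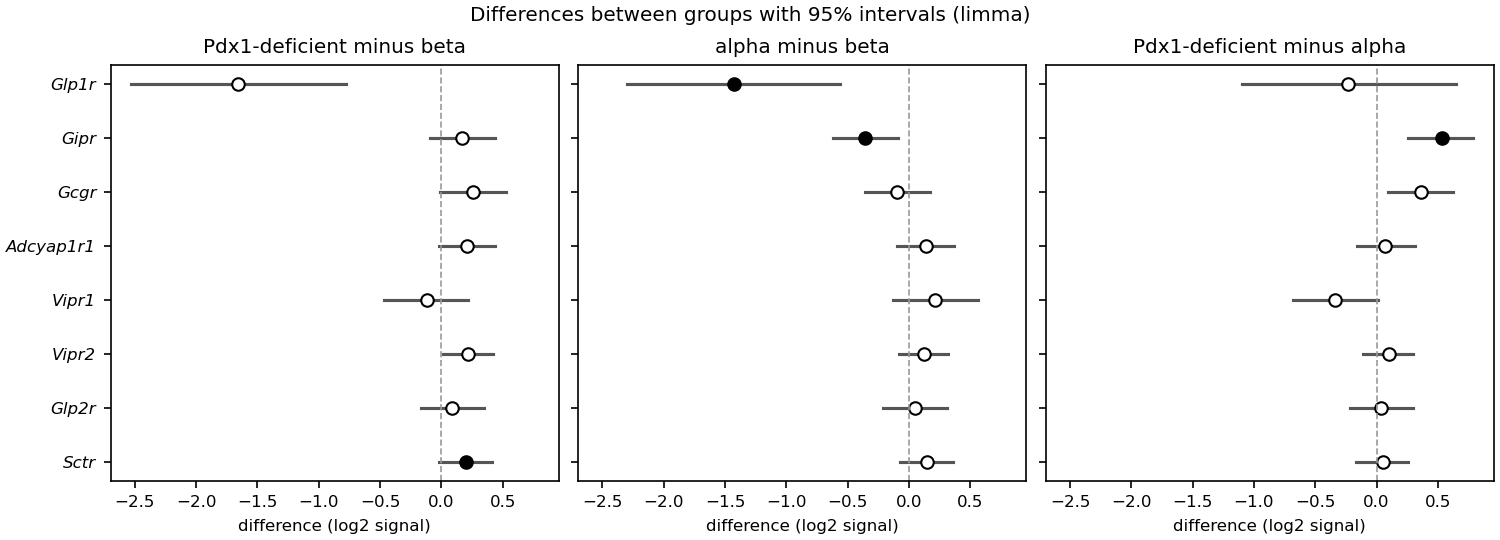
Differences of the 8 receptors in log2 signal (x axes) with 95% intervals from limma, for Pdx1-deficient minus beta, alpha minus beta and Pdx1-deficient minus alpha. Filled points mark receptors whose 2 groups of arrays did not overlap. Glp1r stands at -1.66 and -1.43 in the first 2 panels and at -0.23 in the third, and the other 7 receptors lie between -0.36 and 0.53.

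Counted over the receptors, 0 of 8 passed between Pdx1-deficient and beta arrays, where 1.09% of all genes passed (limma). An unadjusted limma p under 0.05 was reached by 2 of 8, Glp1r and Vipr2, beside 4344 of all 19938 genes. The arrays did not overlap for 1 of 8, Sctr, which was higher, against 5.96% of all genes (2.77% higher and 3.18% lower). Between alpha and beta arrays 0 of 8 passed, against 4.04% of all genes (limma). Glp1r and Gipr had an unadjusted limma p under 0.05, beside 4137 of all 19938 genes. In that comparison 2 of 8 did not overlap, both lower, against 6.34% of all genes (2.29% higher and 4.05% lower). Between Pdx1-deficient and alpha arrays 0 of 8 passed, as did 0% of all genes (limma). Gipr and Gcgr had an unadjusted limma p under 0.05, beside 1197 of all 19938 genes. Gipr alone did not overlap, being higher, against 0.637% of all genes (0.356% higher and 0.281% lower). The median difference of the 8 was 0.18, 0.08 and 0.06 in these comparisons, beside 0.06, 0.04 and 0.02 over all genes. The comparisons share arrays, so their counts are not independent. With Pdx1-deficient replicate 1 left out, Glp1r was the 1 of 8 that passed in each comparison with beta arrays, where 2.75% of all genes passed for Pdx1-deficient and 4.06% for alpha arrays. That array had the highest Glp1r signal of its group, so leaving it out is not independent of Glp1r.

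The genes around the receptors were followed in 7 lists of ligands, related receptors, G-protein partners, cyclic AMP effectors, phosphodiesterases and targets. Of their 88 symbols, 81 were measured. Not analysed were the Gs gene Gnas, the effector genes Prkaca and Rapgef4, Grk2 (also listed under its older symbol, Adrbk1), Pcsk2 and Tcf7. The lists therefore say nothing of these genes. Between Pdx1-deficient and beta arrays 1 of 81 fell and 0 rose, or 1.23% beside 1.09% of all genes (0.928% fell and 0.16% rose). The gene was Ric8b, which encodes a chaperone and exchange factor of Gs-class alpha subunits. It averaged 8.72 ± 0.29 in Pdx1-deficient and 9.43 ± 0.24 in beta arrays (SD, n = 5 each), a difference of -0.70 (SE 0.15, limma adjusted p = 0.0367). The call held in 11 of 23 alternatives, with adjusted p from 0.0194 to 0.0942, and leaving out any beta array or Pdx1-deficient replicate 2, 4 or 5 ended it, as did the replicate block (limma adjusted p = 0.0858).

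Lists without a call in that comparison are given by their largest difference. These were -0.60 in Pcsk1 of the 9 ligand and processing genes (limma adjusted p = 0.445) and 0.36 in Ghrhr, the receptor of growth hormone releasing hormone, of 7 other family B receptors (limma adjusted p = 0.124). The kinase gene Grk5 differed by -0.68 among 10 partner and desensitization genes (limma adjusted p = 0.339), and the regulatory subunit gene Prkar1b of protein kinase A by -0.64 among 13 effectors (limma adjusted p = 0.114). Pde7b differed by -0.77 among 14 phosphodiesterases (limma adjusted p = 0.287). The nuclear receptor gene Nr4a1, which cyclic AMP induces, differed by 1.26 among 15 CREB and target genes (limma adjusted p = 0.077), and with Pdx1-deficient replicate 1 left out it passed at 1.54 (limma adjusted p = 0.0195; 0.0195 to 0.156 over the 23 alternatives).

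Between alpha and beta arrays 4 of 81 fell and 0 rose, or 4.94% beside 4.04% of all genes (3.15% fell and 0.893% rose). Pcsk1, the prohormone convertase that releases GLP-1 from proglucagon and processes proinsulin, averaged 8.86 ± 1.37 in alpha and 11.13 ± 0.16 in beta arrays (SD, n = 5 each), a difference of -2.27 (limma adjusted p = 0.017; 6.15e-05 to 0.0502 over the alternatives). The array labelled alpha replicate 2 read 11.07, within the beta range, where the other alpha arrays read 7.59 to 9.08. Grk5, whose product desensitizes receptors, fell by 1.72 on the log2 scale (limma adjusted p = 0.035), Pde8a, a cyclic AMP phosphodiesterase gene, by 0.83 (limma adjusted p = 0.0206) and the adenylyl cyclase gene Adcy9 by 0.59 (limma adjusted p = 0.0167). Of the 23 alternatives the calls held in 22 for Pcsk1, 14 for Grk5, 19 for Pde8a and 23 for Adcy9. Leaving out alpha replicate 3 ended the calls of Pcsk1, Grk5 and Pde8a (limma adjusted p = 0.0502, 0.0853 and 0.0581). Leaving out beta replicate 1 or 4 ended those of Grk5 and Pde8a, and leaving out alpha replicate 1 or 5 or beta replicate 3 or 5 ended that of Grk5. The replicate block ended the calls of Grk5 and Pde8a (limma adjusted p = 0.062 and 0.0506). Lists without a call had as largest differences 0.30 in Ghrhr, -1.41 in the protein kinase A subunit gene Prkar2b and 0.77 in Nr4a1 (limma adjusted p = 0.174, 0.128 and 0.216).

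**Figure D5:**
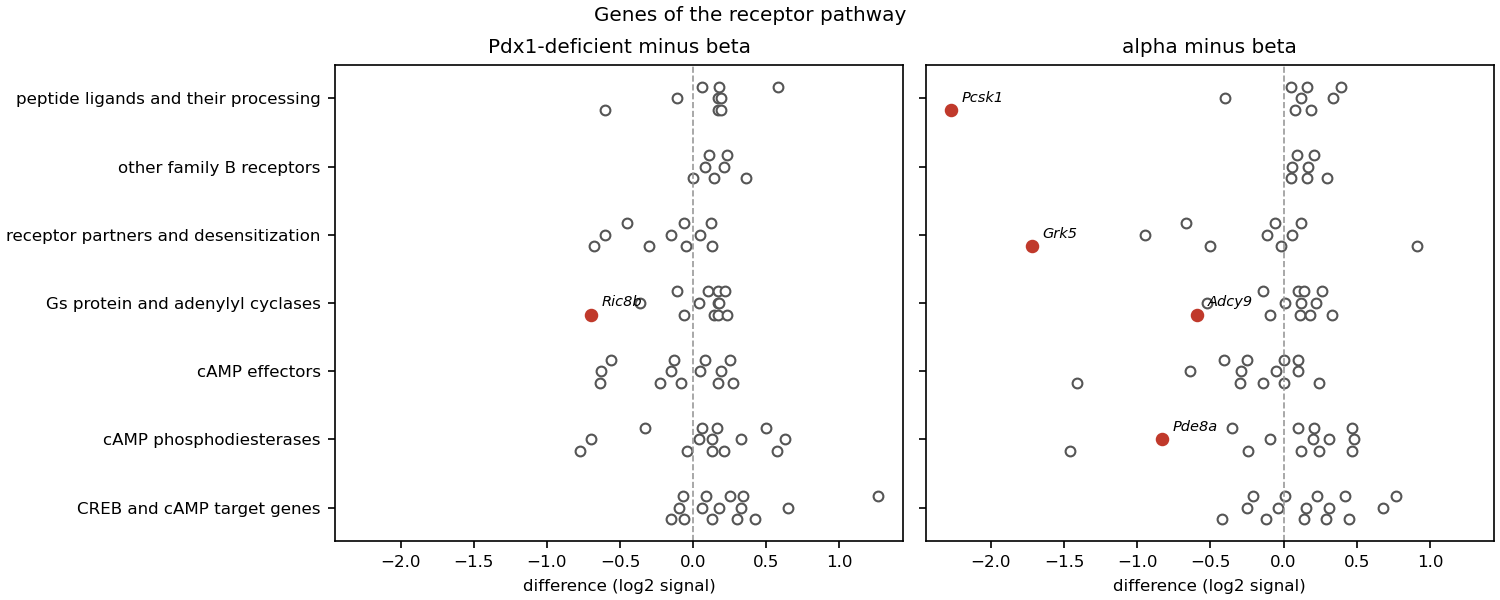
Differences in log2 signal (x axes) of 81 genes in 7 lists around the receptors, for Pdx1-deficient minus beta (left) and alpha minus beta (right). Red points passed a limma adjusted p of 0.05 and are named, and open points did not. In the left panel Ric8b alone passed at -0.70, and in the right panel Pcsk1, Grk5, Adcy9 and Pde8a passed, all lower in alpha arrays.

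Between Pdx1-deficient and alpha arrays 0 of 81 passed (limma, beside 0 of all 19938 genes). The largest difference of each list was 1.68 in Pcsk1 (10.53 ± 0.38 and 8.86 ± 1.37, limma adjusted p = 0.394), 0.08 in Pth1r, -1.06 in Rgs4, 0.31 in Adcy2, 0.84 in Pclo, 0.69 in Pde7b and 0.49 in Nr4a1. Without the array labelled alpha replicate 2 the Pcsk1 difference was 2.23 and passed (limma adjusted p = 0.000774; 0.000774 to 0.855 over the 23 alternatives). The median over the 81 genes was 0.03, beside 0.02 over all genes.

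The other receptors also had neighbours in pattern over the 15 arrays, given as descriptions. For Gipr these were Eno2 (Pearson r = 0.821), Igsf9b (0.786) and Iah1 (0.782). Iah1 averaged 7.05 ± 0.23 in Pdx1-deficient, 6.31 ± 0.33 in alpha and 6.92 ± 0.27 in beta arrays (SD, n = 5 each), low in alpha arrays as Gipr was. Gcgr was closest to Tigd5 (0.730), Dbp (0.728) and Plagl2 (0.725), and Adcyap1r1 to Zbtb45 (0.927), Psg20 (0.909) and Tmem196 (0.908). Vipr1 was closest to Gng13 (0.869), Pnpla7 (0.842) and Elk1 (0.822), and Sctr to Btbd17 (0.936), Pth2 (0.903) and Thsd1 (0.888). Without the 2 arrays farthest from each receptor's median, r rose for Iah1 (0.880), Tigd5 (0.748) and Pnpla7 (0.866). It fell for the remaining genes, as for Dbp (0.594), Elk1 (0.698) and Eno2 (0.742). Whether shared array scaling adds to these coefficients was not tested. Vipr2 and Glp2r had no group mean above the array median and were not searched.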

How the data were processed

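RNA of 15 samples was hybridized to Affymetrix Mouse Gene 1.0 ST arrays, per the labels. The authors deposited 1 value per transcript cluster and array, made with Affymetrix Expression Console per the submitters' processing notes. The range of 2.11 to 13.45 shows a log scale, taken as log2, and folds hold only if the base is 2. The sources used here name no background correction, summarization or build. Array annotation gave 1 gene symbol to 21789 of 35556 clusters, which represent 19938 genes, each by its cluster with the highest mean. Of these clusters 21698 matched a reference gene table by ID.

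Groups came from the titles. The deposited log2 values were fitted with limma 3.58.1 in R 4.3.3 as 3 group means over 15 arrays, with no block, and adjusted p-values are Benjamini-Hochberg values over all 19938 genes (threshold 0.05). Intervals are at 95%. Exact permutation tests were two-sided over the 252 splits of 10 arrays and are not adjusted. The script was tested on simulated data. The number of arrays limits the precision.

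The receptors, gene lists and tests were chosen with earlier results of these data known. All receptors are named. Of each list up to 3 genes past the threshold are named, or the one with the largest difference where none passed. Gcg, Ins2, Sst and Ppy are named besides, chosen after their values were seen. The 3 genes most like a receptor by Pearson r were taken from genes above the mean array median, without Gm and Rik symbols. Some genes of the lists were not analysed here. Alternatives were 2 scalings, a filter on dim genes (25th percentile), other moderation, fewer arrays, the mean over clusters and the replicate number as a block.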

Additional observations from a re-analysis of the deposited data

Results flagged for a closer look

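Among the 23 genes named with a test or as the label check, each array's signal was set against the others of its group, 69 groups in all, and 2 held an array far from the rest; chance gives about 1 in 20 groups. Prkar2b, a protein kinase A regulatory subunit gene, read 5.77 in Pdx1-deficient replicate 4, where the other 4 arrays of that group read 7.82 to 8.54. Ghrhr read 6.59 in beta replicate 4, where the other beta arrays read 6.87 to 6.95. The cause was not tested for either.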

How the results depend on the processing

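Every receptor difference was recomputed under 23 alternatives. The number of receptors past the threshold between Pdx1-deficient and beta arrays, 0 in the reported fit, became 1 (Glp1r) with array medians subtracted and without Pdx1-deficient replicate 1 and alpha replicate 2, and ran from 0 to 1 when each array was left out. Between alpha and beta arrays it became 2 (Glp1r and Gipr) with array medians subtracted, 1 (Glp1r) with only the groups compared, 1 without those arrays, and 0 to 1 in the leave-outs. Between Pdx1-deficient and alpha arrays it was 0 in all 23.

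Among the receptors, signs turned only in differences that never passed. Glp2r turned to -0.01 and -0.04 for Pdx1-deficient minus beta, and to -0.04 and -0.07 for alpha minus beta, with array medians subtracted and with quantile normalization. For Pdx1-deficient minus alpha, Glp1r ran from -0.71 to 0.08 in the leave-outs, Glp2r from -0.05 to 0.11 and Sctr from -0.04 to 0.12, and Sctr was -0.04 without the pair of doubted arrays.

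Counts over all genes moved more. The 217 calls between Pdx1-deficient and beta arrays became 615 with array medians subtracted, 29 with quantile normalization, 121 with trend and robust moderation, 89 with only the groups compared, 626 without the doubted pair and 0 to 548 in the leave-outs. It was 548 without Pdx1-deficient replicate 1, 21, 1 and 0 without replicates 2, 4 and 5, and 4, 69, 3 and 4 without beta replicates 1, 3, 4 and 5. The share of higher calls was 14.7% in the reported fit and 4.23% with array medians subtracted, and for alpha against beta arrays 22.1% and 10.4%. The 806 calls of that comparison became 1425 without the doubted pair and 328 (without alpha replicate 3) to 1430 (without alpha replicate 2) in the leave-outs, with 415 to 439 without the other alpha arrays and 372 to 527 without beta replicates 1, 3, 4 and 5. The 0 calls of Pdx1-deficient against alpha arrays became 1 without dim genes, 1 with trend and robust moderation, 177 without the doubted pair and 0 to 145 in the leave-outs (145 without alpha replicate 2 and 1 without Pdx1-deficient replicate 1). The cause was not tested.

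Replicate numbers were not treated as pairs in the reported fit. Deviations of arrays with the same number correlated between -0.172 and 0.224, and between 0.00504 and 0.224 for alpha and beta arrays. They were over 0.1 in 3 of 5 pairs of alpha and beta arrays and in 1 of 5 in each other comparison. At most 3 of 10 arrays in a comparison correlated best with their own number. Such weak correlations cannot settle whether arrays with the same number shared an animal or a sort. With the replicate block 8 genes passed between Pdx1-deficient and beta arrays, the receptor counts stayed at 0, and Glp1r had a limma adjusted p of 0.093 for Pdx1-deficient against beta arrays. Of the named genes it ended the calls of Ric8b, Grk5 and Pde8a. Arrays give no depth. Vipr2 and Glp2r lay below the array median in nearly all arrays, which limits what their differences can show.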
